A study of Mus musculus with 84 samples.

Results

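Embryonic stem cells (ESCs) and mouse embryonic fibroblasts (MEFs) are the end and the start of a reprogramming experiment, and the comparison between them is described here. The members were the wells titled ES1 to ES3 and Mef1 to Mef3, which are 18 of the 84 wells in the series. The 3 wells that carried one replicate number were repeat preparations of one sample and were summed, which gave 3 ESC and 3 MEF libraries out of 30 libraries in all. The other 24 libraries are cells on the way between both states. They enter the size factors, a range given for a few genes and 1 alternative fit, and no comparison is made with them.

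The series asked how constitutively active SMAD3 alters reprogramming of MEFs with the MKOS factors (Myc, Klf4, Pou5f1 and Sox2), and the ESC and MEF libraries show where each gene starts and where a fully reprogrammed cell would place it. The MEFs were wild-type cells of the 129 strain background, grown in serum medium with FGF2 (5 ng/ml) and heparin (1 ng/ml), and carried no reprogramming cassette. The ESCs were TNG-MKOS cells, also labelled with the 129 background, grown in the same basal medium with 100 U/ml LIF in place of FGF2 and heparin. That ESC line is a single engineered line in which GFP replaces Nanog from the start codon on one allele and a doxycycline-inducible MKOS-mOrange cassette with CAG-driven rtTA sits in the Sp3 locus; no doxycycline is given for its culture. Cell type, line and medium therefore changed together between the groups and cannot be told apart. The sources used here differ on the number of cells in each well, which is therefore not given. The method reads the 5′ ends of transcripts.

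As background, naive mouse ESCs are held by a network of transcription factors built around OCT4 (Pou5f1), SOX2 and NANOG, with LIF, FGF4 and NODAL signals acting around it. They grow as tight epithelial-like colonies, cycle fast with a short G1 phase and keep Polycomb and DNA methylation enzymes at high levels. MEFs are mesenchymal cells that secrete collagen matrix, carry contractile actin fibres and respond to TGF-β, whose receptors phosphorylate SMAD2 and SMAD3.

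The libraries held between 1104551 and 2045460 reads, and single wells between 195330 and 846056. In MEFs 11223 genes had a read in every library and in ESCs 9769. ESC replicate 2 stood apart from the other ESC libraries. Its correlation with ESC replicates 1 and 3, over log counts, was 0.896 and 0.881, against 0.957 between those libraries and 0.945 to 0.963 among MEFs. In ESC replicate 2, 161 of 6014 genes lay more than 4-fold below both other ESC libraries and 51 lay more than 4-fold above both, where the other 5 libraries had 4 to 10 genes and 0 to 2 genes so placed. Results that rest on it are given with and without it.

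The labelled cell types were checked against defining markers. All 9 ESC markers checked (Pou5f1, Sox2, Nanog, Esrrb, Zfp42, Dppa5a, Fbxo15, Utf1 and Tdgf1) were higher in every ESC library than in any MEF library. Among 9 fibroblast markers, Col1a1, Col1a2, Col3a1, Thy1, Pdgfrb, Prrx1 and Dcn were lower in ESCs, while Twist2 (MEFs 9.999, 14.1 and 19.9, ESCs 0 in all 3 normalized counts) and Pdgfra (MEFs 1.11, 9.77 and 6.91, ESCs 0.913, 0 and 0) did not pass the filter on low counts. Cdh5 and Tie1 of endothelium, Krt5, Krt14 and Trp63 of keratinocytes, Myog of muscle and Foxa2 and Sox17 of endoderm had at most 1 read in any library. Other members of those lists were read in MEFs. Of 9 endothelium genes 2 were tested and both were lower in ESCs, Flt1, a VEGF receptor (MEFs 35.6, 29.3 and 53.6, 0 in ESCs) and Emcn (MEFs 21.1, 14.1 and 11.2, 0 in ESCs), and the 9 summed to 56.4 to 73.5 normalized counts in MEFs and 22.8 to 30.7 in ESCs. Without any one MEF library, ESC replicate 2 or ESC replicate 3, 1 endothelium gene was called higher in ESCs, so not all members were lower there. Of 8 muscle and keratinocyte genes in the files Des, desmin, was tested and was lower in ESCs (MEFs 27.8, 15.2 and 20.7, 0 in ESCs), and the 8 summed to 18.5 to 31.1 in MEFs and 3.65 to 12.6 in ESCs. Gata6, a primitive endoderm factor, was at 13.3, 2.17 and 25.1 in MEFs and 0.913, 0 and 0 in ESCs, below the filter on low counts. Macrophage genes were read in MEFs, and their values follow with the other cell types.

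A total of 8798 genes passed the filter on low counts and entered a quasi-likelihood fit in edgeR, whose p-values were adjusted by Benjamini-Hochberg over all of them and called at 0.05. A difference was called for 4597 genes (52.3%). ESCs were higher for 2066 genes (23.5% of those tested) and lower for 2531 (28.8%). Restricted to changes of more than 4-fold, 849 genes were higher (9.65%) and 1518 were lower (17.3%). Without ESC replicate 2 the counts were 2536 higher and 2975 lower of 9460 tested. The median log2 fold change over all tested genes was −0.07. In bulk libraries such as these, fewer cells that hold a transcript and less of it in each cell cannot be told apart. A gene without reads in one group passes the filter only through the other group, so that for gene lists rich in such genes the members that passed had to differ, and the counts below describe them and no more.

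**Figure D1:**
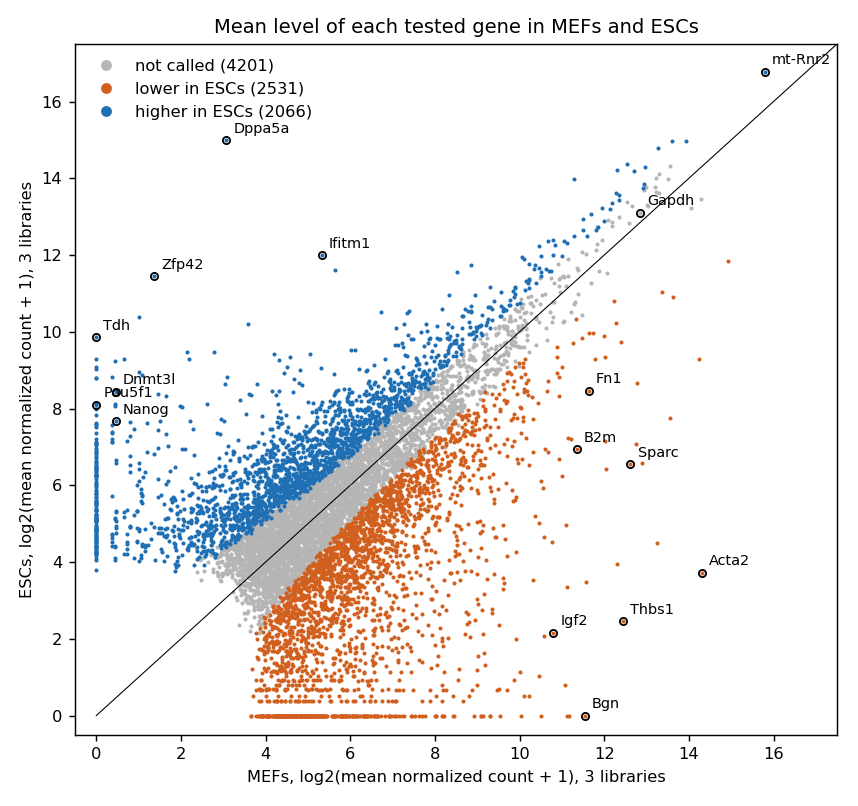
Each point is 1 of the 8798 tested genes, at its mean level in the 3 MEF libraries (x) and the 3 ESC libraries (y), both as log2(mean normalized count + 1), with the line of equal level. Blue points (2066) were higher and orange points (2531) lower in ESCs; genes at the left edge such as Tdh and Pou5f1 had no read in MEFs, and genes at the bottom such as Bgn had none in ESCs.

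Values in the following are normalized counts (reads divided by a size factor for the library), in the order of replicates 1, 2 and 3. Log2 fold changes are ESC over MEF with their standard error (SE). Where a group had no read in any library, a lower bound is given instead, computed from a floor of 3 reads over that group, which equals a mean of 1.01 normalized counts in MEFs and 1.24 in ESCs. With 1 to 3 reads in a group, the ratio is given with an exact interval that covers counting error only. A difference printed without an adjusted p passed the threshold unless the text says otherwise. The p-values measure only the spread between these libraries, each from a separate replicate number of one line or one kind of culture.

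Many of the listed transcription factors of pluripotency were read in ESCs and scarcely or not at all in MEFs. Of 22 listed factors, which included Trp53, 20 were tested and 20 were higher in ESCs, with a median log2 fold change of 8.75 beside −0.07 for all genes. Scaled by library totals, or with the replicate number as a block in the fit, 19 were higher, the call of Trp53 being lost. Of the 22, 11 had no read in any MEF library. Members without MEF reads could pass the filter only through ESCs, so their direction was fixed by it. The Nanog and Zfp42 promoters are shown because both genes belong to that network and their upstream sequence holds letters of the octamer, the element that OCT4 is known to bind. The sequences are the 250 bases before the RefSeq start in GRCm38.p6, read 5′ to 3′ on the gene's strand. Capitals mark the partial octamer TTTGCAT in Nanog and the octamer ATGCAAAT, which reads ATTTGCAT on the opposite strand and so contains TTTGCAT, in Zfp42.
Nanog, chr6:122707239-122707488, plus strand: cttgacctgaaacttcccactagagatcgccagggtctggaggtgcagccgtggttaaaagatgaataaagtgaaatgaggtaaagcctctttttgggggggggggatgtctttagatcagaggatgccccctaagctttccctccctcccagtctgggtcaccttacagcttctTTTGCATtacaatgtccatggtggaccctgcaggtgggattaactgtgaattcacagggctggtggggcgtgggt
Zfp42, chr8:43307010-43307259, minus strand: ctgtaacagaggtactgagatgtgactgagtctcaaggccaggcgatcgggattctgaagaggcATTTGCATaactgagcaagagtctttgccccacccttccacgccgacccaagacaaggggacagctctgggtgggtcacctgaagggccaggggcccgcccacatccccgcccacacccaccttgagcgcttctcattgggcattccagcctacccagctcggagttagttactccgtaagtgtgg

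Counting either strand, TTTGCAT occurred in 1096 of 27025 RefSeq promoters of that length (4.06%) and ATGCAAAT in 435 (1.61%). A match is a description of the letters and not of binding in these cells.

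Pou5f1, the core factor OCT4 (chr17:35506018-35510772, plus strand), stood at 195, 287 and 341 normalized counts in ESCs and at 0 in all 3 MEF libraries, at least 261-fold higher in ESCs (adjusted p = 2.37e-08). Sox2, its partner on DNA, was at 227, 997 and 271 in ESCs and 0, 2.17 and 0.864 in MEFs, an ESC to MEF ratio of 414 (95% counting interval 141 to 2009.7). The spread of Sox2 among ESC libraries was wide, with replicate 2 far above the others, yet no ESC library came near a MEF library. Nanog (chr6:122707489-122714633, plus strand) was at 299, 21.7 and 285 in ESCs and 1.11, 0 and 0 in MEFs, an ESC to MEF ratio of 689 (95% counting interval 123 to 27253, adjusted p = 5.05e-06). Here ESC replicate 2 was the low library, and these cells have only one intact Nanog allele; the counts do not separate the alleles. Without ESC replicate 2 the adjusted p for Nanog was 5.55e-46.

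The other factors of the MKOS cassette behaved unlike Pou5f1 and Sox2. Klf4 was present in both cell types, at 54.8, 134 and 63.0 in ESCs and 27.8, 16.3 and 19.9 in MEFs, a log2 fold change of 1.95 (SE 0.42, adjusted p = 0.00106). Every ESC library was above every MEF library, but MEFs were far from 0. Myc was at 48.4, 47.0 and 55.3 in ESCs and 92.2, 73.8 and 70.9 in MEFs, a log2 fold change of −0.64 (SE 0.32, adjusted p = 0.11), so that no difference passed the test although the ESC libraries were all lower. Mycn, the related N-MYC gene, was at 126, 336 and 144 in ESCs and 8.89, 1.09 and 0.864 in MEFs, a log2 fold change of 5.81 (SE 0.62).

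The factors of the naive network were among those with the largest differences. Tfcp2l1, a target of LIF and WNT signals in naive cells, was at 279.5, 262 and 302 in ESCs and 0 in all 3 MEF libraries, at least 281-fold higher in ESCs. Esrrb, an orphan nuclear receptor, was at 174, 347 and 238 and 0 in all 3 MEF libraries, at least 232-fold higher in ESCs. Zfp42 (REX1), a widely used marker of the naive state, was the most abundant listed factor at 2275, 3654 and 2506 against 0, 2.17 and 2.59, a log2 fold change of 10.60 (SE 0.58). For these 3 genes the ESC libraries lay closer together than for Nanog and Sox2. Sall4, which maintains the undifferentiated state, was at 118, 235 and 139 and 0 in all 3 MEF libraries. The smallest called difference in the list was that of Trp53, the p53 gene, at 547, 72.3 and 694 in ESCs and 196, 186 and 148 in MEFs, where ESC replicate 2 lay below all MEF libraries. This gave a log2 fold change of 1.34 (SE 0.52, adjusted p = 0.0403), and 1.89 without that library (adjusted p = 1.68e-11). The call was lost on leaving out any other one of the 6 libraries, with adjusted p-values from 0.0819 to 0.162, and under scaling by library totals (0.0613).

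Genes other than transcription factors that mark ESCs gave the most abundant ESC transcripts. Of 24 members in the file 22 were tested and 22 were higher in ESCs (median log2 fold change 9.14). Dppa5a, an RNA-binding protein gene of pluripotent cells, stood at 26857, 48415 and 23195 in ESCs and 6.67, 8.68 and 6.91 in MEFs, a log2 fold change of 12.08 (SE 0.61, adjusted p = 2.13e-09). After the mitochondrial rRNA mt-Rnr2 it had the most reads of any gene in ESCs. Tdh, threonine dehydrogenase, which feeds the one-carbon pool of mouse ESCs, was at 1057, 583 and 1146 in ESCs and 0 in all 3 MEF libraries, at least 970.3-fold higher in ESCs. It was the most abundant ESC gene that had no MEF read. The others of the 5 such genes with the highest ESC level were 2610305D13Rik (623, 488 and 749.7), Fbxo15 (588, 370.3 and 658), an F-box gene known as an OCT4 and SOX2 target, Trh (695, 130.1 and 755), the thyrotropin-releasing hormone precursor, and L1td1 (479.6, 488 and 368), an RNA-binding protein derived from a LINE-1 element.

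Further genes among the 12 largest increases were Tcl1 at 580.1, 235 and 519.5, which activates AKT, and Spink3 at 166, 511 and 168 in ESCs, a serine protease inhibitor. Spink3 was at 0 in all 3 MEF libraries, at least 244-fold higher in ESCs. Tdgf1, the NODAL co-receptor CRIPTO, was at 1577, 829 and 1591 in ESCs and 1.11, 1.09 and 0.864 in MEFs, an ESC to MEF ratio of 1400.4 (95% counting interval 479 to 6794). Ifitm1, an interferon-induced membrane protein gene that is also active in early embryos and germ cells, was at 3647, 5000.0 and 3657 and 67.8, 28.2 and 21.6, a log2 fold change of 6.73 (SE 0.48). Lin28a, which blocks maturation of let-7, was at 83.1, 88.5 and 51.4 and 0 in all 3 MEF libraries, at least 73.7-fold higher in ESCs.

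The most abundant transcripts overlapped in part. Ranked by reads, the first 10 genes in MEFs were mt-Rnr2, Tmsb4x, Acta2, Malat1, Lgals1, Ftl1, mt-Co1, Actb, mt-Atp8 and Ppia, and in ESCs they were mt-Rnr2, Dppa5a, mt-Atp8, mt-Co1, mt-Co2, Rps29, Ppia, Gm6654, Npm1 and mt-Co3. Tmsb4x, thymosin beta 4, which binds actin monomers, was at 36031, 33889 and 23116 in MEFs and 3009.9, 5621 and 2387 in ESCs, a log2 fold change of −3.08 (SE 0.42). Lgals1, galectin 1, was at 21484, 21734 and 14756 and 539, 867 and 476, a log2 fold change of −4.94 (SE 0.42). Npm1, a nucleolar protein, was at 21725, 14238 and 21255 in ESCs and 5833, 5580.3 and 3760.3 in MEFs, a log2 fold change of 1.93 (SE 0.37, adjusted p = 0.000343). Malat1, a nuclear RNA, was at 7855, 15867 and 10062 in ESCs and 20991, 18585 and 20091 in MEFs, a log2 fold change of −0.82 (SE 0.37, adjusted p = 0.0694).

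**Figure D2:**
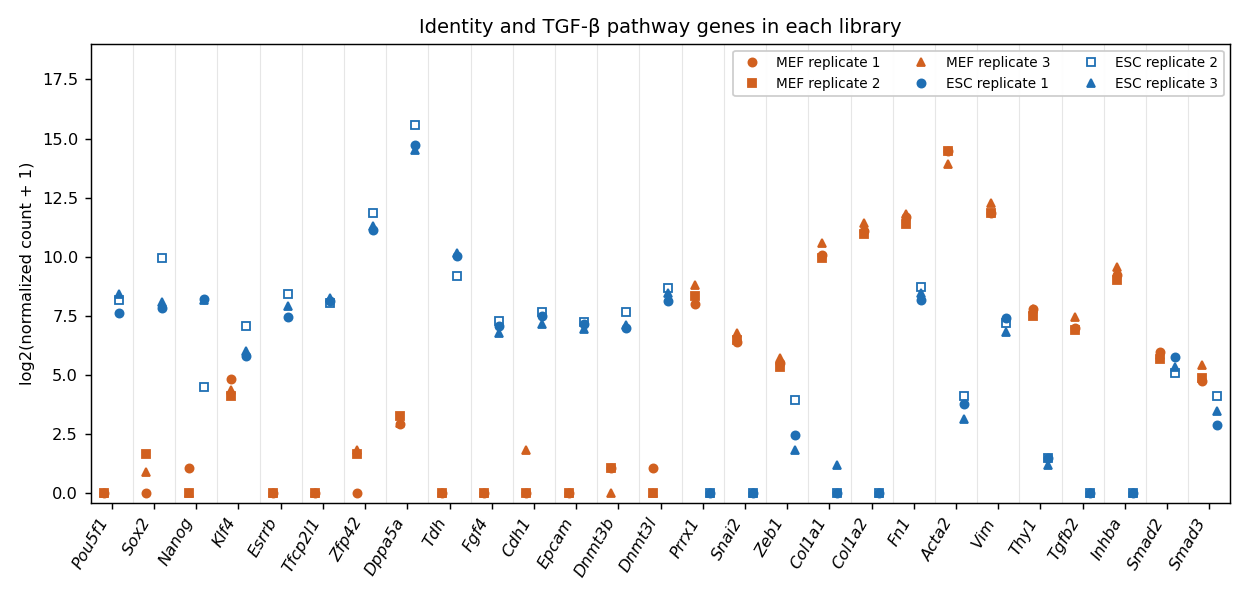
Level of selected genes in each library as log2(normalized count + 1), orange for MEFs and blue for ESCs, with the open square for ESC replicate 2. Nanog in ESC replicate 2 (21.7 normalized counts) lies far below the other ESC libraries, and Smad2 overlaps between the groups.

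Rows for microRNA genes and their host transcripts were few, and reads in them come from the locus or its primary transcript, not from the mature microRNA. The mature sequences of the loci with the clearest values are shown for their shared seeds, bases 2 to 8 in capitals (RefSeq, GRCm38.p6).
miR-294-3p: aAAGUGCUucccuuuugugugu
miR-295-3p: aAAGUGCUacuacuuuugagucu
miR-17-5p: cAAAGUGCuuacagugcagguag
miR-20a-5p: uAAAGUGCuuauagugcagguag
miR-22-3p: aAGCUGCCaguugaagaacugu

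The first 2 share the seed AAGUGCU and belong to the ESC cluster on chromosome 7, the next 2 share AAAGUGC, which is the same run of letters shifted by 1 base, and come from the Mir17hg transcript on chromosome 14. Mir295 was at 29.2, 54.2 and 19.3 normalized counts in ESCs and 0 in all 3 MEF libraries, at least 31.5-fold higher in ESCs (adjusted p = 2.48e-05). Mir294 was at 4.57, 9.03 and 9.001 and 0 in all 3 MEF libraries, too few reads to be tested. Mir17hg was at 59.4, 68.6 and 45.006 in ESCs and 6.67, 9.77 and 3.46 in MEFs, a log2 fold change of 3.13 (SE 0.49). Mir22hg, the host of miR-22 on chromosome 11, went the other way, at 1.83, 1.81 and 10.3 in ESCs and 101, 81.4 and 120.1 in MEFs, a log2 fold change of −4.41 (SE 0.54). Thus both rows with the related seeds that could be tested were higher in ESCs and the host of miR-22 was lower; these rows were chosen after their values were seen.

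Signalling genes of pluripotent cells were mixed. Of 21 tested, 11 were higher and 6 lower in ESCs, and 3 were lower without ESC replicate 3. Among all tested genes 23.5% were higher and 28.8% lower, so the number lower was near the general share. Among ligands, Fgf4, which acts through ERK in ESCs, was at 132, 154 and 108 and 0 in all 3 MEF libraries, at least 129-fold higher in ESCs. Nodal was at 59.4, 43.4 and 70.7 and 0 in all 3 MEF libraries, at least 58.9-fold higher in ESCs. Its antagonist Lefty1 was at 102, 77.7 and 60.4 and 0 in all 3 MEF libraries, at least 82.7-fold higher in ESCs. These genes were read in each ESC library and in no MEF library. Gdf3, another TGF-β family ligand, was at 544, 135 and 391 in ESCs and 0, 1.09 and 0 in MEFs, an ESC to MEF ratio of 1197 (95% counting interval 214 to 47329). Bmp4 was at 26.5, 32.5 and 15.4 in ESCs and 40.0, 23.9 and 50.1 in MEFs, a log2 fold change of −0.63 (SE 0.45, adjusted p = 0.248), and the groups overlapped.

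Of the receptors and mediators, Acvr2b, a NODAL and activin receptor, was at 20.1, 27.1 and 24.4 in ESCs and 0 in all 3 MEF libraries. Lifr, the LIF receptor, was at 55.7, 57.8 and 54.0 and 5.55, 10.9 and 19.9, a log2 fold change of 2.16 (SE 0.47). Il6st, its co-receptor gp130, was at 15.5, 14.5 and 23.1 and 26.7, 41.2 and 38.9, a log2 fold change of −0.99 (SE 0.44, adjusted p = 0.0711). Stat3, the factor that carries the LIF signal, was lower in ESCs at 37.5, 19.9 and 50.1 against 123, 126 and 124, a log2 fold change of −1.75 (SE 0.36). The medium of the ESCs held LIF and that of the MEFs did not. Among target genes, Etv5, an ERK target, was at 342, 332 and 378 and 11.1, 10.9 and 34.6, a log2 fold change of 4.16 (SE 0.43), while Id3, a BMP and TGF-β target, was at 139.8, 72.3 and 132 and 1765, 1879 and 1238, a log2 fold change of −3.79 (SE 0.37). Etv5 was above and Id3 below the MEF range in every ESC library.

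The fibroblast transcription factors formed the reverse of the pluripotency group. Of 24 mesenchymal factors, 14 were tested and 14 were lower in ESCs, and 16 had no read in any ESC library. Prrx1, a limb and body wall mesenchyme factor, was at 253, 325 and 445 in MEFs and 0 in all 3 ESC libraries, at least 283-fold lower in ESCs (adjusted p = 2.55e-08). Snai2 (SLUG), a repressor of epithelial genes, was at 82.2, 87.9 and 109.8 and 0 in all 3 ESC libraries, at least 76.6-fold lower in ESCs. Zeb2 was at 57.8, 51.0 and 38.0 and 0 in all 3 ESC libraries, and Runx2, the osteoblast factor, at 18.9, 27.1 and 45.8 and 0 in all 3. Zeb1, by contrast, kept reads in ESCs, at 4.57, 14.5 and 2.57 against 44.4, 39.1 and 51.0 in MEFs, a log2 fold change of −2.76 (SE 0.56). Twist1 was at 0, 7.23 and 1.29 in ESCs and 22.2, 13.025 and 30.2 in MEFs, a log2 fold change of −3.23 (SE 0.82). For Twist1 most of the ESC reads came from replicate 2.

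Extracellular matrix genes supplied many of the largest decreases. Of 14 tested collagen genes, 13 were lower in ESCs and 1 was higher, beside 28.8% and 23.5% of all tested genes. No ESC read was found for 9 of the 16 in the file. Col1a2, which encodes a chain of type I collagen, was at 2181, 2000.5 and 2753 in MEFs and 0 in all 3 ESC libraries, at least 1898-fold lower in ESCs (adjusted p = 4.22e-09). Col1a1, its partner chain, was at 1083, 975 and 1544 and 0, 0 and 1.29, a MEF to ESC ratio of 2981 (95% counting interval 535 to 117778). Col5a2 was at 997, 906 and 1242 and Col3a1 at 525, 478 and 632 in MEFs, with 0 in all ESC libraries for both. The exception was Col18a1, a basement membrane collagen that gives rise to endostatin, at 102, 101 and 83.6 in ESCs and 22.2, 20.6 and 20.7 in MEFs, a log2 fold change of 2.17 (SE 0.35, adjusted p = 6.97e-05).

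Of 28 other matrix genes tested, 26 were lower and 0 were higher in ESCs, beside 28.8% and 23.5% of all tested genes. The median log2 fold change was −6.94, and 7 of the 30 in the file had no ESC read. Bgn, the proteoglycan biglycan, was at 3404, 3076 and 2467 in MEFs and 0 in all 3 ESC libraries, at least 2376-fold lower in ESCs, the largest bound of any gene named here. Tnc, tenascin C, was at 1318, 1364 and 1677 and 0 in all 3 ESC libraries, at least 1190.0-fold lower in ESCs. Thbs1, thrombospondin, was at 5356, 4913 and 6317 in MEFs and 8.22, 5.42 and 0 in ESCs, a log2 fold change of −10.12 (SE 0.63). Not all matrix genes were lost to that degree. Fn1, fibronectin, remained at 285, 421 and 354 in ESCs against 3246, 2713 and 3591 in MEFs, a log2 fold change of −3.17 (SE 0.34). Lamc1, a laminin chain, was at 114, 59.6 and 96.4 and 95.5, 56.4 and 87.3, a log2 fold change of 0.20 (SE 0.35, adjusted p = 0.656), and the groups overlapped.

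Actin and contractile genes accounted for 5.68% ± 0.327 (SD, n = 3) of all MEF reads and 0.158% ± 0.0122 of ESC reads. Of 25 tested, 24 were lower in ESCs, beside 28.8% of all tested genes. The Acta2 promoter is shown because Acta2, smooth muscle actin, was the third most abundant MEF transcript; capitals mark the letters TATATGG, which form part of CArG-type elements of the kind that SRF is known to bind.
Acta2, chr19:34255374-34255623, minus strand: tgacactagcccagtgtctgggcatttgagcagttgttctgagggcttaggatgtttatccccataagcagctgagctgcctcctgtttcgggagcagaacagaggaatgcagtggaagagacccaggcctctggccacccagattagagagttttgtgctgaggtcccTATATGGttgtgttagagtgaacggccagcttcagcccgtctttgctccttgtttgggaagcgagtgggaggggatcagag

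The motif, on either strand, was in 377 of 27025 promoters (1.40%). Acta2 was at 22826, 22462 and 15619 in MEFs and 12.8, 16.3 and 7.72 in ESCs, a log2 fold change of −10.69 (SE 0.54, adjusted p = 2.13e-09). Actg2, the enteric smooth muscle actin, was at 2529, 2660.4 and 1455 and 0 in all 3 ESC libraries, at least 1740.3-fold lower in ESCs. Tagln (SM22) was at 10717, 11182 and 7127 and 59.4, 3.61 and 1.29, a log2 fold change of −8.64 (SE 0.87). In each of these MEF replicate 3 was the lowest MEF library, still far above all ESC libraries. Vim, the intermediate filament of mesenchymal cells, was at 3745, 3718 and 4935 and 171, 145 and 112, a log2 fold change of −4.85 (SE 0.38). The member that did not pass was Cnn3, a calponin, at 369, 356 and 391 in MEFs and 242, 374 and 274 in ESCs, a log2 fold change of −0.33 (SE 0.29, adjusted p = 0.355).

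The rest of the 12 largest decreases by the same rule were Gsn, gelsolin, which severs actin (739, 701 and 779 in MEFs), Wisp1, a matricellular protein (662, 579.6 and 638), Gng11, a G protein subunit (499, 683 and 439.9), and the matrix gene Fbln5 (444, 492 and 514), beside Inhba and Igfbp7. In ESCs Gsn was at 0 in all 3, Wisp1 at 0 in all 3, Gng11 at 0 in all 3 and Fbln5 at 0 in all 3 libraries.

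The SMAD3 question of the series concerns the TGF-β pathway. Of 19 tested ligands, receptors and Smads, 12 were lower and 0 were higher in ESCs, beside 28.8% and 23.5% of all tested genes. Among ligands, Inhba, the activin A subunit, was at 599.9, 524 and 759.7 in MEFs and 0 in all 3 ESC libraries, at least 516-fold lower in ESCs (adjusted p = 7.75e-09). Tgfb2 was at 127, 117 and 176 and 0 in all 3 ESC libraries, at least 116-fold lower in ESCs. Tgfb3, a related ligand, was at 117, 89.0 and 159.9 and 0 in all 3 ESC libraries, at least 101-fold lower in ESCs. Both ligand genes were thus read in every MEF library and in no ESC library, while the file lists Tgfb1 at 0 in all 6 libraries.

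The receptors differed among themselves. Tgfbr2, the ligand-binding receptor, was at 88.9, 68.4 and 95.1 in MEFs and 0, 0 and 2.57 in ESCs, a MEF to ESC ratio of 103 (95% counting interval 28.2 to 855, adjusted p = 1.18e-06). Tgfbr1 (ALK5), the signalling receptor, was at 44.4, 26.1 and 27.7 and 11.9, 19.9 and 33.4, a log2 fold change of −0.59 (SE 0.48, adjusted p = 0.315). The drop in Tgfbr2 thus passed the test and was near complete, while the values of Tgfbr1 overlapped between the groups.

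The intracellular mediators were retained to a greater extent. Smad2 was at 62.2, 49.9 and 57.0 in MEFs and 52.982, 32.5 and 39.9 in ESCs, a log2 fold change of −0.40 (SE 0.36, adjusted p = 0.361). Smad3 was at 25.6, 28.2 and 42.3 and 6.39, 16.3 and 10.3, a log2 fold change of −1.61 (SE 0.51, adjusted p = 0.0145). Smad4, the common partner, was at 49.993, 90.1 and 85.6 and 61.2, 70.4 and 54.0, a log2 fold change of −0.29 (SE 0.34, adjusted p = 0.503). Of these, Smad3 alone passed the test, with every ESC library below every MEF library. Its call was lost without MEF replicate 3 (log2 fold change −1.35, edgeR adjusted p = 0.0748) and without ESC replicate 1 (−1.29, adjusted p = 0.0770). The log2 ratio of Smad2 to Smad3 within a library was 1.25, 0.80 and 0.42 in MEFs and 2.87, 0.96 and 1.86 in ESCs, and these values overlapped, so that no shift between them was resolved.

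Of 16 tested genes that TGF-β is known to induce in fibroblasts, 14 were lower and 1 was higher in ESCs, and without ESC replicate 2 there were 2 higher. The shares of all tested genes were 28.8% lower and 23.5% higher. Igfbp7 was at 472, 469 and 734 in MEFs and 0 in all 3 ESC libraries, at least 463-fold lower in ESCs. Cdkn2b, the p15 inhibitor of CDK4, was at 111, 94.4 and 117 and 0, 1.81 and 0, a MEF to ESC ratio of 262 (95% counting interval 46.7 to 10391). Ctgf was at 1489.8, 1399 and 1715 and 21.9, 9.03 and 41.1, a log2 fold change of −5.94 (SE 0.47). The member that was higher in ESCs was Tgif1, a co-repressor of SMADs, at 343, 303 and 411 in ESCs and 179, 158 and 123 in MEFs, a log2 fold change of 1.22 (SE 0.30, adjusted p = 0.00262).

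Epithelial genes were mostly low or absent in MEFs. Of 25 in the file 12 were tested, 9 were higher and 1 was lower in ESCs, beside 23.5% and 28.8% of all tested genes. No MEF read was found for 13 of the 25. Cdh1, E-cadherin (chr8:106603351-106670246, plus strand), was at 179, 204 and 140.2 in ESCs and 0, 0 and 2.59 in MEFs, an ESC to MEF ratio of 171 (95% counting interval 58.1 to 833, adjusted p = 6.96e-08). Epcam, a surface adhesion molecule, was at 139.8, 149.9 and 121 and 0 in all 3 MEF libraries, at least 135-fold higher in ESCs. Esrp1, an epithelial splicing regulator, was at 33.8, 28.9 and 48.9 and 0 in all 3 MEF libraries, at least 37.2-fold higher in ESCs. The keratin Krt18 was lower in ESCs at 21.0, 7.23 and 0 against 76.7, 39.1 and 70.9, a log2 fold change of −2.58 (SE 0.65). Its partner Krt8 was at 15.5, 0 and 0 in ESCs and 3.33, 2.17 and 0.864 in MEFs, below the filter on low counts. F11r and Tjp1, junction genes read in both cell types, did not pass the test (log2 fold changes −0.51 and 0.08).

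DNA methylation enzymes and cofactors also differed. Of 14 tested genes, 9 were higher and 1, Tet3, was lower in ESCs, beside 23.5% and 28.8% of all tested genes. None was lower without MEF replicate 1, MEF replicate 3, ESC replicate 1 or ESC replicate 3, and 2 were without ESC replicate 2. Dnmt3b, a de novo methyltransferase, was at 126, 204 and 138 in ESCs and 1.11, 1.09 and 0 in MEFs, an ESC to MEF ratio of 219.8 (95% counting interval 60.4 to 1822, adjusted p = 3.36e-08). Dnmt3l, its catalytically inactive cofactor, was at 279, 406 and 356 and 1.11, 0 and 0, an ESC to MEF ratio of 991 (95% counting interval 177 to 39182). Dnmt3a, the other de novo enzyme, was at 50.2, 52.4 and 88.7 and 26.7, 13.025 and 49.3, a log2 fold change of 1.08 (SE 0.46, adjusted p = 0.0587), which did not pass. Every ESC library was above every MEF library for Dnmt3a all the same, and without ESC replicate 2 the adjusted p was 0.00235.

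Tet1, which oxidizes 5-methylcytosine, was at 549, 708 and 633 in ESCs and 5.55, 0 and 5.19 in MEFs, a log2 fold change of 7.37 (SE 0.53). Tet3 went the other way, at 1.83, 12.6 and 0 and 14.4, 10.9 and 29.4, a log2 fold change of −2.17 (SE 0.83, adjusted p = 0.0366). The groups overlapped for Tet3, and its call was lost without MEF replicate 1 or 3 or ESC replicate 1 or 3, with adjusted p-values from 0.0568 to 0.206, and in DESeq2's Wald test (0.0821). Zfp57, which guards methylation at imprinted loci, was at 164, 12.6 and 193 and 21.1, 20.6 and 27.7, a log2 fold change of 2.44 (SE 0.61). In ESC replicate 2 Zfp57 fell below all MEF libraries, and without it the log2 fold change was 2.99.

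Polycomb and remodelling subunits were mostly higher or not called. Of 22 tested, 12 were higher and 2 were lower in ESCs, or 1 lower without MEF replicate 2, MEF replicate 3 or ESC replicate 1. Among all tested genes 23.5% were higher and 28.8% lower. Cbx7, the chromobox protein of ESC Polycomb complexes, was at 108, 114 and 54.0 in ESCs and 0, 2.17 and 0 in MEFs, an ESC to MEF ratio of 137 (95% counting interval 37.5 to 1137). Jarid2 and Mtf2, accessory subunits of Polycomb repressive complex 2, had log2 fold changes of 4.95 and 3.78. The core subunits of that complex moved less, with 2.20 for the methyltransferase Ezh2, 2.08 for Suz12 and 1.93 for Eed, all past the test. Smarca2 (BRM), an ATPase of the BAF remodelling complex, was at 17.8, 18.5 and 24.2 in MEFs and 0 in all 3 ESC libraries, at least 16.6-fold lower in ESCs. Its counterpart Smarca4 (BRG1) was at 44.4, 63.0 and 79.5 and 40.2, 52.4 and 55.3, a log2 fold change of −0.35 (SE 0.36, adjusted p = 0.431), with overlapping groups.

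Hox genes set positional identity along the body axis. Of 37 in the file, 33 had no read in ESCs and 6 had none in MEFs, and 7 passed the filter, of which 7 were lower in ESCs. Hoxa10 was at 22.2, 28.2 and 52.7 in MEFs and 0 in all 3 ESC libraries, at least 29.1-fold lower in ESCs. Hoxc8 was at 31.1, 36.9 and 33.7 and 0 in all 3 ESC libraries, at least 27.4-fold lower in ESCs. Hoxc13 was the sole Hox gene with more reads in ESCs, at 3.65, 1.81 and 6.43 against 1.11, 0 and 1.73, below the filter on low counts.

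Imprinted genes, expressed from one parental allele, were mainly lower in ESCs, 10 of 17 tested, with 3 higher. Among all tested genes 28.8% were lower and 23.5% higher. Igf2, a paternally expressed growth factor, was at 1816, 1684 and 1844 in MEFs and 0.913, 1.81 and 7.72 in ESCs, a log2 fold change of −8.98 (SE 0.55, adjusted p = 4.59e-09). H19, the maternally expressed RNA next to it, was at 307, 272 and 368 and 5.48, 3.61 and 0, a log2 fold change of −6.54 (SE 0.53). Both neighbours were thus low together in ESCs. Phlda2, a maternally expressed gene that limits placental growth, was at 72.2, 145 and 55.3 in ESCs and 0 in all 3 MEF libraries, at least 82.7-fold higher in ESCs. Meg3 was at 136, 336 and 154 and 317, 280.0 and 476, a log2 fold change of −0.80 (SE 0.37, adjusted p = 0.0761), and without ESC replicate 2 its adjusted p was 3.52e-05.

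Most replication genes were higher in ESCs. Of 35 tested, 31 were higher in ESCs and 0 were lower, beside 23.5% and 28.8% of all tested genes. The median log2 fold change was 2.15. Cdt1, which licenses replication origins, was at 107, 258 and 116 in ESCs and 5.55, 5.43 and 8.64 in MEFs, a log2 fold change of 4.54 (SE 0.47, adjusted p = 7.73e-07). Mcm10 was at 82.2, 88.5 and 97.7 and 6.67, 6.51 and 6.05, a log2 fold change of 3.78 (SE 0.41). Pcna, the sliding clamp, was at 1423, 638 and 1351 and 294, 339.7 and 161, a log2 fold change of 2.13 (SE 0.38). All ESC libraries were above all MEF libraries for these 3 genes. Rrm1, a subunit of ribonucleotide reductase, was at 253, 154 and 225 and 139, 129 and 184 and did not pass (adjusted p = 0.202).

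Regulators of G1 and the p53 axis were called at shares near those of all genes (23.5% higher and 28.8% lower), with 4 higher and 6 lower of 18 tested, and 2 higher without MEF replicate 1. Ccnd2, a D-type cyclin, was at 1283, 1238 and 1308 in MEFs and 12.8, 12.6 and 6.43 in ESCs, a log2 fold change of −6.88 (SE 0.41). Cdkn1a, the p21 inhibitor that p53 induces, was at 1014, 1027 and 820.2 and 58.5, 32.5 and 52.7, a log2 fold change of −4.28 (SE 0.35). Mdm2, the ligase that degrades p53, was at 437, 521 and 472 and 85.9, 119 and 121, a log2 fold change of −2.13 (SE 0.30). These p53 targets were lower in ESCs while Trp53 itself was higher in 2 of the 3 ESC libraries. Ccna2, cyclin A2, was at 159.9, 312 and 143 in ESCs and 41.1, 63.0 and 62.2 in MEFs, a log2 fold change of 1.87 (SE 0.36). Cdkn2a (p16 and ARF) was at 8.89, 14.1 and 13.8 in MEFs and 0 in all 3 ESC libraries, below the filter.

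Among glucose genes, 10 of 20 tested were higher and 2 lower in ESCs, beside 23.5% and 28.8% of all tested genes. Without ESC replicate 2, 15 were higher. Without MEF replicate 1, MEF replicate 2, ESC replicate 1 or ESC replicate 3, 1 was lower. Slc2a3, the high-affinity glucose transporter GLUT3, was at 669, 753 and 706 in ESCs and 5.55, 8.68 and 3.46 in MEFs, a log2 fold change of 6.91 (SE 0.42, adjusted p = 4.43e-09). The ESC libraries lay close together here. Pdk1, a kinase that inhibits pyruvate dehydrogenase, was at 132, 132 and 116 and 9.999, 10.9 and 12.1, a log2 fold change of 3.50 (SE 0.36). Eno3, the muscle enolase, was lower in ESCs at 14.6, 16.3 and 12.9 against 164, 165 and 120.1, a log2 fold change of −3.34 (SE 0.36). Gapdh was at 14209, 370.3 and 11889 in ESCs and 9113, 8808 and 4322 in MEFs, a log2 fold change of 0.28 (SE 0.73, adjusted p = 0.766). ESC replicate 2 was lower than all other libraries for Gapdh, and without it the log2 fold change was 0.90 (adjusted p = 0.00956).

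In serine, threonine and one-carbon metabolism, 7 of 17 tested were higher and 2 lower, beside 23.5% and 28.8% of all tested genes. Besides Tdh, Gldc, the glycine-cleaving enzyme, was at 158, 298 and 145 in ESCs and 0, 2.17 and 0 in MEFs, an ESC to MEF ratio of 277 (95% counting interval 76.2 to 2293). Gcat, which acts after Tdh on threonine, was at 213, 57.8 and 212 and 25.6, 21.7 and 22.5, a log2 fold change of 2.82 (SE 0.45). Phgdh, which starts serine synthesis, was lower at 113, 92.1 and 154 against 434, 442 and 275, a log2 fold change of −1.66 (SE 0.32). Mthfd2, a mitochondrial folate enzyme, was lower too, at 69.4, 45.2 and 51.4 against 230.0, 214 and 148. Psat1 and Psph, the other enzymes of serine synthesis, were not called (log2 fold changes −0.63 and −0.42).

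Among nuclear genes of the respiratory chain 6 of 26 tested were higher, a share near the 23.5% of all genes, and 0 were lower. The number higher was 3 without MEF replicate 2, 2 without MEF replicate 3 and 15 in a fit of all 30 libraries. Cox7a1, a heart and muscle isoform of a cytochrome oxidase subunit, was at 132, 132 and 63.0 in ESCs and 16.7, 13.025 and 4.32 in MEFs, a log2 fold change of 3.29 (SE 0.47). Cox8a was at 426, 1918 and 352 and 379.9, 322 and 256, a log2 fold change of 1.48 (SE 0.49, adjusted p = 0.0189), and its call rested on ESC replicate 2, since without it the log2 fold change was 0.37 (adjusted p = 0.214). Reads from mitochondrial DNA were 8.74% ± 0.526 of MEF reads and 16.1% ± 0.502 of ESC reads (SD, n = 3), and no ESC library was near a MEF library.

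Cytosolic ribosomal protein genes took 10.5% ± 1.07 of reads in MEFs and 17.2% ± 2.92 in ESCs (SD, n = 3). Of 68 tested, 49 were higher in ESCs, with a median log2 fold change of 1.01. Scaled by library totals, which lowered the median log2 fold change of all genes from −0.07 to −0.25, 41 of them were higher. Without ESC replicate 2 the number was 51, but without MEF replicate 1, 2 or 3 it was 27, 18 and 28. Rps29 was the most abundant in ESCs, at 15174, 36931 and 11425 against 7352, 6371 and 4046 in MEFs, a log2 fold change of 1.84 (SE 0.44). ESC replicate 2 was well above the other ESC libraries for Rps29. Ribosomal protein genes have many processed copies in the genome, and reads may be split among them.

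**Figure D3:**
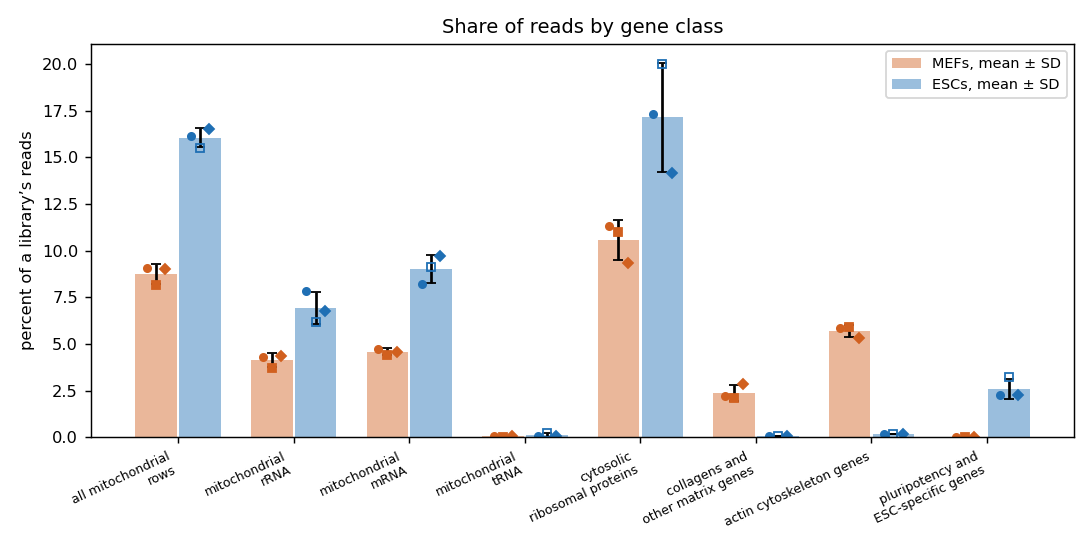
Percent of all reads of a library that fell to each gene class, as bars for the mean of 3 libraries with the SD and points for each library (open square, ESC replicate 2). Mitochondrial and ribosomal protein reads take a larger share in ESCs, and actin and matrix genes a larger share in MEFs, where they reach 5.68% and 2.37%.

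Cytokines and growth factors of fibroblasts were largely lost, with 16 of 19 tested lower in ESCs and 0 higher. The shares of all tested genes were 28.8% and 23.5%, and 7 of the 25 listed members had no ESC read. Cxcl12, a chemokine for stem and immune cells, was at 468, 441 and 612 in MEFs and 0.913, 0 and 1.29 in ESCs, a MEF to ESC ratio of 625 (95% counting interval 173 to 5167). Dkk3 was at 58.9, 47.8 and 59.6 and 0 in all 3 ESC libraries, and Il6, a cytokine, at 71.1, 53.2 and 34.6 and 0 in all 3 ESC libraries. Ccl2, which attracts monocytes, was at 391, 307 and 194 and 0, 3.61 and 0, a MEF to ESC ratio of 350.2 (95% counting interval 96.7 to 2897). For Il6 and Ccl2 the order of the MEF libraries was that of the macrophage genes Lyz2 and Tyrobp, with replicate 1 highest and replicate 3 lowest. Acta2, Tmsb4x and B2m had the same order, so it was not particular to these genes, and Cxcl12 did not have it.

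Immediate early genes, which serum and stress induce, were lower in ESCs for 10 of 12 tested, beside 28.8% of all tested genes. Fosl2, an AP-1 subunit, was at 109, 105.289 and 107 in MEFs and 0.913, 0 and 0 in ESCs, a MEF to ESC ratio of 259.8 (95% counting interval 46.3 to 10294). Fos was at 71.1, 69.5 and 59.6 and 6.39, 5.42 and 3.86, a log2 fold change of −3.61 (SE 0.46). No ESC library reached a MEF library for either gene.

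Antigen presentation and interferon genes were lower for 7 and higher for 1 of 14 tested (28.8% and 23.5% of all tested genes), the higher one being Ifitm1. Without ESC replicate 2 the counts were 6 lower and 3 higher. B2m, the light chain of MHC class I, was at 3078, 2835 and 1937 in MEFs and 119, 135 and 114 in ESCs, a log2 fold change of −4.40 (SE 0.35, adjusted p = 4.93e-08). Ifi27 was at 116, 79.2 and 65.7 and 0.913, 0 and 0, a MEF to ESC ratio of 206 (95% counting interval 36.7 to 8171).

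Surface markers used to follow reprogramming split by cell type. Thy1 was at 221, 178 and 223 in MEFs and 1.83, 1.81 and 1.29 in ESCs, a log2 fold change of −6.85 (SE 0.47). Cd44, the hyaluronan receptor, was at 451, 442 and 513 and 0, 1.81 and 0, a MEF to ESC ratio of 1146 (95% counting interval 205 to 45297). Icam1, an adhesion molecule, was higher in ESCs at 51.2, 54.2 and 59.2 against 17.8, 14.1 and 15.6, a log2 fold change of 1.79 (SE 0.40, adjusted p = 0.00127). Cd44 and Icam1 therefore ran in opposite directions, with no overlap between the groups for either gene. Kit, the stem cell factor receptor, was at 35.6, 23.5 and 60.4 in ESCs and 0 in all 3 MEF libraries, at least 40.5-fold higher in ESCs.

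Germline genes were read in ESCs and scarcely in MEFs. Of 19 in the file, 13 had no MEF read, and 9 of 9 tested were higher in ESCs. Tdrd12, a piRNA pathway gene, was at 136, 77.7 and 136 in ESCs and 0 in all 3 MEF libraries, at least 122-fold higher in ESCs. Sycp3, of the synaptonemal complex, was at 284, 316 and 229 and 3.33, 8.68 and 3.46, a log2 fold change of 5.73 (SE 0.43). Genes of the transient 2-cell-like state were read in ESCs and, as a set, in MEFs. The 15 in the file summed to 506 to 658 normalized counts in MEFs and 692 to 1142 in ESCs, although 13 had no MEF read. Of 4 tested, 3 were higher and 0 lower, beside 23.5% and 28.8% of all tested genes, and 5 were higher on leaving out ESC replicate 2 or any one MEF library. Zscan4d was at 111, 135 and 159 and 0 in all 3 MEF libraries, at least 131-fold higher in ESCs, but Zscan4 genes are near-identical copies and the split of reads among them is uncertain.

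Markers of other embryonic lineages went both ways. Of 3 tested epiblast and germ layer genes 2 were higher in ESCs and 1 lower, and of 2 tested primitive endoderm and trophoblast genes 1 was higher and 1 lower. Leaving out 1 library took the epiblast and germ layer counts to 1 higher (without ESC replicate 1) or 2 lower (without MEF replicate 1, ESC replicate 2 or ESC replicate 3), and the primitive endoderm and trophoblast count to 2 lower (without MEF replicate 2 or any one ESC library). Otx2, an epiblast and neural factor, was at 77.6, 48.8 and 129 in ESCs and 0 in all 3 MEF libraries, at least 86.8-fold higher in ESCs. Tfap2c, which acts in trophoblast and germ cells, was at 19.2, 90.3 and 55.3 and 0 in all 3 MEF libraries, at least 46.7-fold higher in ESCs. Tubb3, a neuronal tubulin, was at 82.2, 47.0 and 125 in ESCs and 43.3, 48.8 and 35.4 in MEFs, a log2 fold change of 1.02 (SE 0.38). The groups overlapped for Tubb3, and its call was lost on leaving out any one library but ESC replicate 2 (adjusted p from 0.0610 to 0.194), under scaling by library totals (0.0857) and in DESeq2's Wald test (0.0673). The lower genes were Nes, the filament nestin, at 4.57, 3.61 and 7.72 in ESCs and 73.3, 104 and 156 in MEFs, a log2 fold change of −4.34 (SE 0.49), and Dab2, an endocytic adaptor, at 3.65, 5.42 and 0 and 158, 109 and 105.437, a log2 fold change of −5.34 (SE 0.55). Gata4, Sox17 and Foxa2 of endoderm had 0, 1 and 0 reads over the 3 ESC libraries.

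Macrophage markers were present in the MEF libraries. Of 12 blood and macrophage genes in the file, 5 were tested and 4 were lower in ESCs (7 without MEF replicate 3 and 8 without any one ESC library), and the summed level of all 12 ranged from 503 to 2085 normalized counts in MEFs and from 12.9 to 34.3 in ESCs. Lyz2, lysozyme, was at 1713, 1012 and 383 in MEFs and 0, 3.61 and 0 in ESCs, a MEF to ESC ratio of 1188 (95% counting interval 329 to 9814). Tyrobp, an immune receptor adaptor, was at 134, 63.0 and 38.9 and 0 in all 3 ESC libraries. Ptprc (CD45) was at 5.55, 5.43 and 3.46 and 0 in all 3 ESC libraries, below the filter on low counts. Replicate 1 was the highest and replicate 3 the lowest MEF library for these 3 genes, while Csf1r, a macrophage receptor, was at 13.3, 6.51 and 13.8 in MEFs. Their part in the cytokine values was not tested.

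Related genes were also set against each other within a library, which cancels the library's scale before the added count. For 24 pairs chosen so that the first gene is the one linked to pluripotent cells, the log2 ratio was taken after adding 1 normalized count to each gene. The pairs were chosen with earlier results of these data known, so the counts of pairs describe them and no more. In 18 pairs all ESC libraries lay above all MEF libraries, in 1 pair all lay below, and in 5 they overlapped. Among single genes tested, 60.2% did not overlap between the groups in either direction, which is no background for ratios of chosen pairs. With 3 libraries against 3, an exact two-sided permutation test cannot give a p under 0.1, so no pair can pass it alone.

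Cdh1 over Cdh2, E- over N-cadherin, had log2 ratios of −6.51, −6.25 and −5.09 in MEFs and 4.61, 4.11 and 2.99 in ESCs, a difference of 9.85. Lefty1 over Inhba differed most, by 15.59, from −9.23, −9.04 and −9.57 to 6.69, 6.30 and 5.94. Lmnb1 over Lmna, B-type over A-type lamin, went from −4.37, −4.10 and −4.48 to 2.70, 7.20 and 2.11. In these 3 pairs the sign of the ratio itself turned between the cell types in every library. Mycn over Myc went from −3.24, −5.16 and −5.27 to 1.36, 2.81 and 1.37, so MEFs held more Myc and ESCs more Mycn. Slc2a3 over Slc2a1 went from −3.83, −2.95 and −4.34 to 1.18, 2.08 and 0.80. Klf4 over Klf6 went from −4.05, −4.71 and −4.45 to 0.02, 0.81 and 0.29, near parity in ESCs.

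Other pairs were subunits of one complex or enzyme. Smarca4 over Smarca2 went from 1.28, 1.72 and 1.68 in MEFs to 5.36, 5.74 and 5.81 in ESCs. Smarcc1 over Smarcc2 went from 1.75, 1.84 and 2.07 to 5.72, 4.89 and 3.87. Smarcd1 over Smarcd3 went from 1.62, −0.17 and 0.09 to 5.00, 2.48 and 3.56. The first gene was ahead in all MEF libraries for the other 2 BAF pairs and in 2 of 3 for Smarcd1. Ldhb over Ldha, the lactate dehydrogenase subunits, went from −2.45, −2.15 and −2.17 to −0.89, −1.45 and −1.12, and Ldha stayed above Ldhb in both cell types. Cox7a2 over Cox7a1 was the pair that fell, from 6.59, 6.85 and 7.55 to 3.91, 5.09 and 4.67. Hdac2 over Hdac5 overlapped, at 3.59, 3.71 and 3.71 and 4.16, 3.76 and 3.21, and so did Ccnd3 over Ccnd1, at −0.81, −0.38 and 0.02 and 0.49, 0.00 and 0.20. Ratios for genes at or near 0, such as Inhba in ESCs or Fgf2 in both groups, depend on the count that was added.

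**Figure D4:**
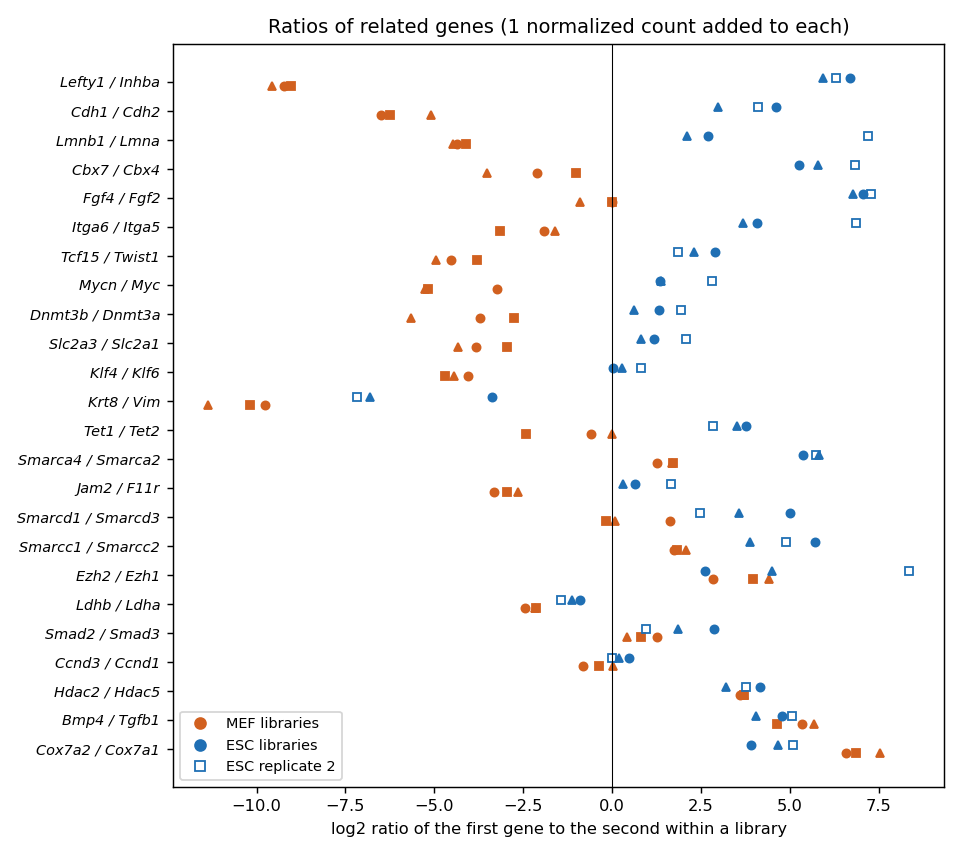
Log2 ratio of the first to the second gene of each pair within a library, orange for the 3 MEF and blue for the 3 ESC libraries (open square, ESC replicate 2). In 18 pairs the ESC points all lie to the right of the MEF points, and for Cox7a2 over Cox7a1 they lie to the left.

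The shares of tested members that were higher or lower are plotted by list beside those of all tested genes. For lists whose members lack reads in one group, such as mesenchymal factors, Hox genes and germline genes, the share follows from the filter and is no comparison with the background. The same holds for the pluripotency factors and ESC-specific genes that lack MEF reads.

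**Figure D5:**
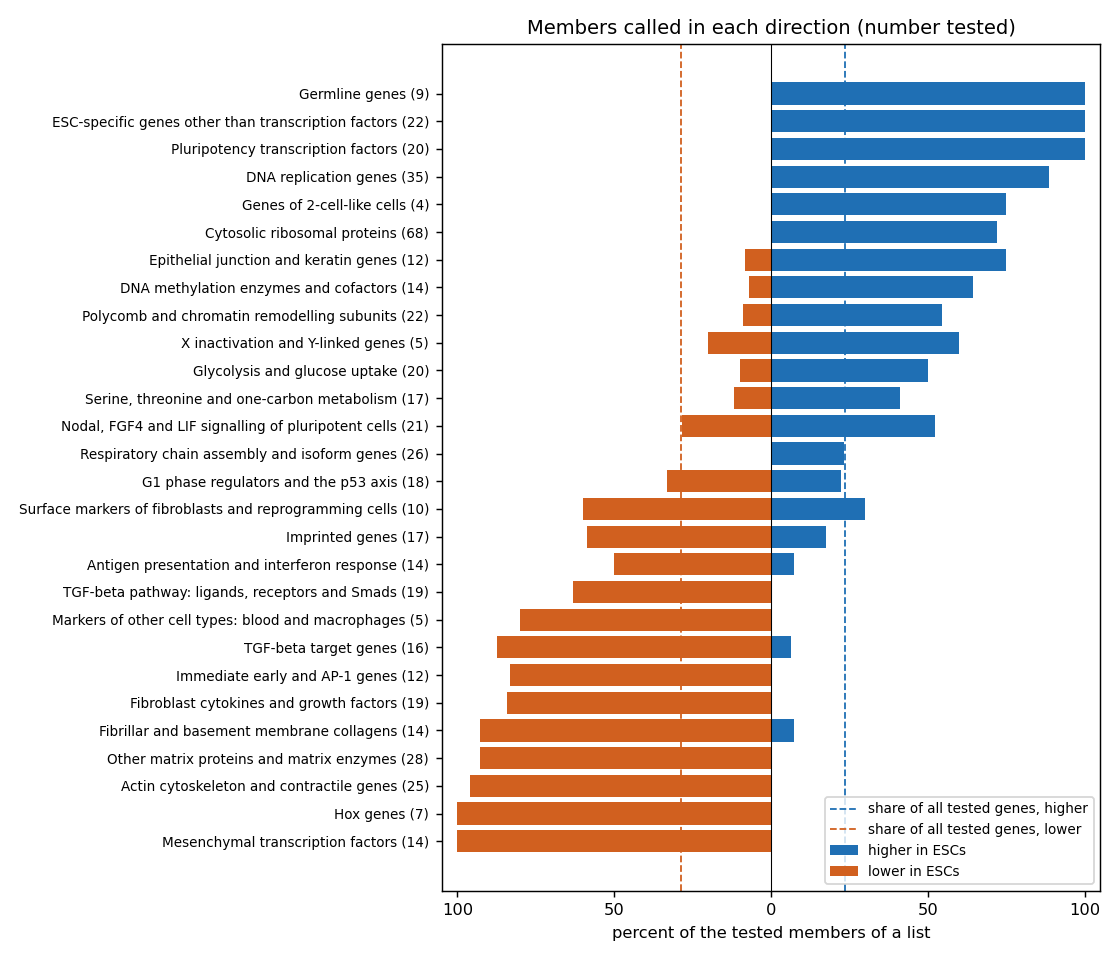
Percent of the tested members of each list with at least 4 tested genes (number in parentheses) that were higher (blue, right) or lower (orange, left) in ESCs, with dashed lines at 23.5% and 28.8% for all tested genes. Mesenchymal factors, Hox and actin genes stand at the far left, and germline, ESC-specific and pluripotency genes at the far right.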

How the data were processed

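Cells were profiled by STRT RNA-seq, which tags transcript 5′ ends. The authors deposited raw counts of reads for 18909 genes in 84 wells. The submitters' processing notes name Bowtie 0.12.9, DESeq2 1.6.3 and mm10. Reads carried molecular tags, but the study worked from read counts rather than molecule counts, so repeats of a tag count each time. The table held 0 spike-in rows.

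Wells of one replicate number were summed. Normalized counts are reads divided by DESeq2 1.42.0 size factors over 30 libraries. The 6 libraries were compared in R 4.3.3 with edgeR 4.0.16 (TMM, filterByExpr, quasi-likelihood test, Benjamini-Hochberg adjustment), tested on simulated data first. Depth was 1104551 to 2045460 reads a library. Alternatives were other scalings, filters, single wells, all libraries in one fit, DESeq2 and leaving out each replicate. Pairs were tested by exact permutation.

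Named genes were the 12 largest changes in each direction with a mean of at least 100 normalized counts in one group, the 10 most-read genes of each group, and the 5 most abundant without reads in the other group. A few genes, some of them within that rule, are not reported here. List examples and microRNA rows were named after values were seen. Members, lists and pairs were chosen with earlier results of these data known. Promoters and microRNAs are from RefSeq (GRCm38.p6).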

Additional observations from a re-analysis of the deposited data

How the results depend on the processing

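No gene passed the test in opposite directions under any alternative, and the counts over all genes stayed within 1.5 times those reported except as follows. Without a filter on low counts, 1371 genes were higher by more than 4-fold, and with a stricter filter (mean of 20 reads) 555 were higher and 986 lower by that much. A fit of all 30 libraries called 3198 genes higher. One well a library, taken by its plate row, has fewer reads and tests fewer genes. Row A gave 1235 higher and 1423 lower, 456 and 823 by more than 4-fold; row B 1168 and 1580, 442 and 923 by more than 4-fold; row C 522 higher by more than 4-fold. Leaving out 1 library at a time gave 1739 to 2536 higher and 2282 to 2975 lower, and 918 to 1070 and 1579 to 1811 by more than 4-fold. Scaling by library totals gave 1702 higher and 2737 lower, so that 38.3% of called genes were higher, against 44.9%. Among the genes named, no direction reversed. Besides Smad3, Trp53, Tet3, Tubb3 and Cox8a, the calls of Ccnd1 and Smarcc2 were lost on leaving out single libraries, Ccnd1 without MEF replicate 1 or 2 or ESC replicate 1 or 3 (adjusted p from 0.0576 to 0.129) and Smarcc2 without MEF replicate 2 or 3 or ESC replicate 1 (0.0578 to 0.104). Cox8a was also lost without MEF replicate 2 (0.0652) or 3 (0.104). Counts of list members called moved by over 1.5 times in 159 of 1024 cases, 52 of 384 on leaving out 1 library. Without a filter 21 Hox genes were lower in place of 7.

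Same-numbered ESC and MEF libraries correlated at 0.13, −0.15 and −0.18 in their deviations from the group means, and libraries of unlike number at −0.21 to 0.27. With 3 libraries a side these deviations depend on each other, so the correlations cannot settle whether the replicate numbers pair them. With the replicate number as a block, 1797 genes were higher and 2304 lower, and 849 and 1555 by more than 4-fold, and the calls of Trp53 (adjusted p = 0.182), Tet3 (0.0787), Tubb3 (0.0920) and Cox8a (0.0643) were not made. The scaling by spike-in reads was not run, since the table has 0 spike-in rows. Detection was checked on simulated counts for 4-fold changes, where 161 of 182 changed genes were recovered, and not for smaller ones. The simulation used a dispersion of 0.1, the same mean in both groups for unchanged genes and few changed genes among 8701 tested. It therefore does not describe detection or scaling with the spread and the many differences of these libraries.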

Other observations

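ESC replicate 2 differed from the other ESC libraries in each of its 3 wells. Gapdh was at 196, 206 and 165 CPM in its wells, against 6774 to 7953 in the other 6 ESC wells. Cox8a was at 973, 1019 and 916, against 189 to 235. In normalized counts, a unit unlike the CPM of the wells, Gapdh ranged from 924 to 11000 and Cox8a from 162 to 358 among the 24 libraries outside the comparison. By the normalized counts given above, ESC replicate 2 lay below that Gapdh range, and ESC replicates 1 and 3 lay above it. For Cox8a, ESC replicates 1 and 2 lay above the range and ESC replicate 3 lay within it. Cfl1, cofilin, which severs actin filaments, was at 1755, 249 and 2183 normalized counts in ESC replicates 1 to 3, and Ndufb2, a subunit of respiratory complex I, at 55.7, 426 and 55.3. The biological coefficient of variation was 0.386 among ESC libraries and 0.235 among MEF libraries.

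Of 5 tested X inactivation and Y-linked genes, 3 were higher and 1 was lower in ESCs, beside 23.5% and 28.8% of all tested genes. Without ESC replicate 3, 1 was higher. The number lower was 2 without MEF replicate 1, ESC replicate 1 or ESC replicate 3, and 3 without ESC replicate 2. The genes named here are not among the 3 that were higher. Xist, the RNA that coats the inactive X, was at 19.997, 10.9 and 33.7 in MEFs and 2.74, 0 and 3.86 in ESCs, a log2 fold change of −3.09 (SE 0.75). The Y-linked gene Kdm5d was at 4.44, 15.2 and 17.3 in MEFs and 0 in all 3 ESC libraries, below the filter on low counts. Ddx3y, also Y-linked, was at 208, 169 and 201 in MEFs and 104, 164 and 90.0 in ESCs, a log2 fold change of −0.70 (SE 0.31, adjusted p = 0.0696).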
